A study of Mus musculus with 6 samples.

Results

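Lysosomal enzymes, membrane proteins and their transcription factors were followed as 41 mouse genes fixed by name, and each of the 41 was found once among the 34745 genes of the table. The tissue was tumour that Hep1-6 cells, a hepatoma line of the mouse kept in serum-containing medium, formed under the skin of C57BL/6J hosts into which they had been injected, and its RNA was sequenced. By label, 3 tumours are from hosts on a high cholesterol diet (HCD 1 to HCD 3) and 3 from hosts on a normal diet (ND 1 to ND 3). Both groups share the cell line, the strain and the injection site. The labels give neither the animals' age or sex nor the time of harvest, nor whether the tumours of a group are from separate animals. The p-values therefore refer to the spread among the libraries, which may be technical. One question is which lysosomal transcripts differ with dietary cholesterol, and the second question is which of them vary with the macrophage content of the tumour piece.

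Lysosomes are acidic compartments in which hydrolases degrade proteins, glycans and lipids delivered by endocytosis and autophagy. Nearly all cell types have them, and macrophages, which engulf and digest material, are rich in them and in several cathepsins. The basic helix-loop-helix factors TFEB, TFE3 and MITF bind E-box motifs in the promoters of lysosomal genes and raise their transcription when the factors enter the nucleus, so the transcript level of a factor need not show its activity.

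Values are the FPKM that the authors deposited, in which fragment numbers are divided by the length of the gene and the size of the library. Steps between low values put the library sizes at 20330840 to 26214700 fragments, so that 1 FPKM of a 2 kb gene stands for 40.7 to 52.4 reads, and the least covered member value, that of Idua in ND 1, for about 47.4 reads. Correlations of log2 values between libraries were 0.96 to 0.99. The 12 hepatoma markers were uneven in level. Alb, serum albumin, averaged 1439 FPKM in HCD and 1375 FPKM in ND. Afp, the fetal plasma protein of hepatomas, averaged 154 FPKM in HCD and 142 FPKM in ND. Over the 6 libraries Krt18 averaged 1230 FPKM and Rbp4 257 FPKM, but Ttr only 8.25 FPKM and Trf 0.691 FPKM. Apoa2 and Serpina1a, 2 of the 12, lay below the level for testing, at 0.298 and 0.0523 FPKM. HCD 1 and ND 2 carried the most skeletal muscle transcripts, with summed muscle markers of 848 and 710 FPKM. The sum was 85.6 FPKM in HCD 2 and 5.41 to 12.4 FPKM in HCD 3, ND 1 and ND 3. A gene was tested if its mean over the 6 libraries was at least 0.5 FPKM; all 41 members and 13417 genes in all passed this filter. In these bulk samples fewer cells of a type and less RNA per cell cannot be told apart.

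Levels of the members spanned a wide range. Cd63, a tetraspanin of late endosomes and lysosomes, had the highest mean at 304 FPKM over the 6 libraries, followed by Psap, the precursor of the saposins that present sphingolipids to hydrolases, at 284 FPKM. Ctsz, a cysteine carboxypeptidase, and Lamp1, a heavily glycosylated protein of the lysosomal membrane, averaged 232 and 215 FPKM. At the other end Mitf averaged 0.603 FPKM, Idua, the alpha-L-iduronidase of heparan and dermatan sulfate breakdown, 0.881 FPKM, and Sgsh, a heparan sulfatase, 0.909 FPKM.

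The macrophage content of a library was described by the mean of log2(FPKM + 1) of Lyz2, the lysozyme of myeloid cells, and Adgre1, the macrophage surface protein F4/80. Lyz2 was at 246, 399 and 125 FPKM in HCD 1 to HCD 3, against 83.6, 232 and 175 FPKM in ND 1 to ND 3. Adgre1 was at 11.3, 22.5 and 9.38 FPKM in HCD 1 to HCD 3 and at 6.82, 14.2 and 11.2 FPKM in ND 1 to ND 3. HCD 2 was the highest and ND 1 the lowest library for both genes, and the diet groups overlapped. Lyz2 differed by 0.61 between the diets on the log2 scale (HCD minus ND, SE 0.522) and Adgre1 by 0.35 (SE 0.369), with adjusted p-values of 0.813 and 0.845 in limma. The index made from them was 5.78, 6.60 and 5.18 in HCD 1 to HCD 3 and 4.69, 5.90 and 5.54 in ND 1 to ND 3.

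A member was taken to follow the index where Pearson's r over the 6 libraries was at least 0.8. By this rule 17 of the 41 members (41.5%) followed it and 24 did not, against a background of 12.2% of all 13417 tested genes. None of the members ran against it at an r of -0.8 or less, where 4.32% of all genes lay. The last member inside the limit was Ids, with an r of 0.86, and the first outside was Gla, alpha-galactosidase A, with 0.79. The median r was 0.71 over the members and 0.10 over all tested genes. These values describe 6 libraries that share their depth and their other cells with the index, and the separation is not a test.

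**Figure D1:**
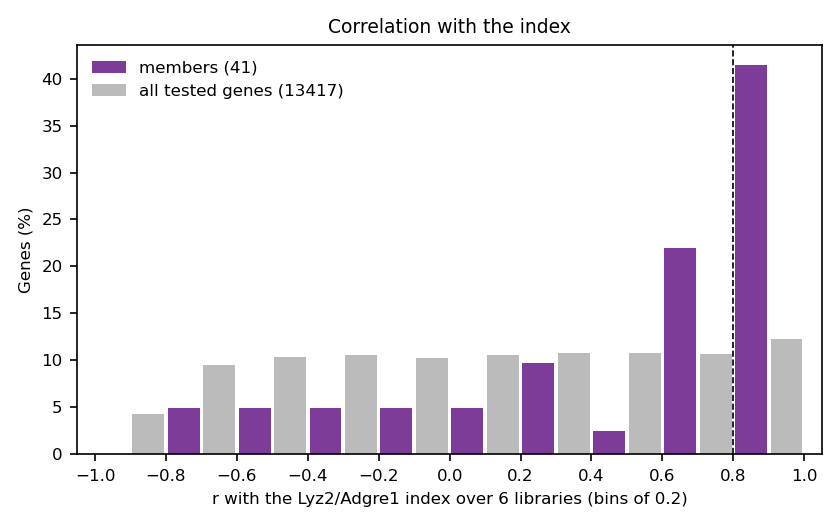
Percent of genes (vertical axis) by Pearson's r with the Lyz2 and Adgre1 index over 6 libraries (horizontal axis, bins of 0.2), for the 41 members (purple) and the 13417 tested genes (grey), with the limit of 0.8 dashed. The last bin holds 41.5% of the members and 12.2% of all genes.

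The separation had limits that the libraries set. Of the 41 correlations none passed after Benjamini-Hochberg adjustment of exact two-sided permutation p-values over the members: the smallest adjusted value was 0.0569, and with 720 pairings of 6 libraries an unadjusted p cannot go below 0.00139. Without HCD 2 and ND 1, the libraries farthest from the index median, 7 of the 17 kept an r of 0.8 or more. Over these remaining 4 libraries the other 10 fell below it, from 0.78 for Ctsa to -0.02 for Grn. Of the 24 outside the limit 5 reached it there: Arsb, Ctsf, Gaa, Lamp2 and Naglu. The place of a member on either side thus depended in part on HCD 2 and ND 1. When every value was taken as its deviation from its diet mean, each of the 17 stayed at 0.87 or more, and Lamp2 joined them at 0.91. With an index from C1qa, C1qb, C1qc and Csf1r, other macrophage genes of the same libraries, 15 of the 17 and none of the 24 reached 0.8. Without HCD 1 and ND 2, the libraries with the most muscle transcripts, 24 of the 41 members reached 0.8. HCD 2, with summed muscle markers of 85.6 FPKM, stayed in this setting. In every setting tried for the separation 4 members stayed inside: Hexa, Idua, Mitf and Ppt1.

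Markers of other cell types varied with the index as well. Of 12 macrophage markers 10 reached an r of 0.8, and their summed level was 434 to 843 FPKM in HCD and 261 to 540 FPKM in ND, with no marker at 0 in all libraries. Among T cell markers 7 of 8 reached it (summed level 41.3 to 88.8 FPKM in HCD and 30.8 to 58.7 FPKM in ND), among dendritic cell markers 4 of the 6 tested (19.5 to 35.3 FPKM in HCD and 10.9 to 27.3 FPKM in ND), and among endothelial markers 4 of 6 (62.9 to 112 FPKM in HCD and 52.1 to 65.5 FPKM in ND). Of the 10 tested hepatoma markers, the 8 fibroblast markers, the 7 neutrophil markers and the 8 tested muscle markers none did. The summed neutrophil markers did not overlap between the diets, at 46.9 to 48.0 FPKM in HCD and 50.2 to 112 FPKM in ND. All 7 had a lower mean in HCD, with a median log2 difference of -0.52, and limma called none of them. The sums of the hepatoma, fibroblast and muscle markers overlapped between the diets. The muscle markers had a median r of 0.56. The libraries highest in their sum, HCD 1, ND 2 and HCD 2, were also those with the highest index. The neutrophil marker Mmp9 and the hepatoma marker Alb ran the other way, with r of -0.92 and -0.80. Their part in the members' values was not tested.

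**Figure D2:**
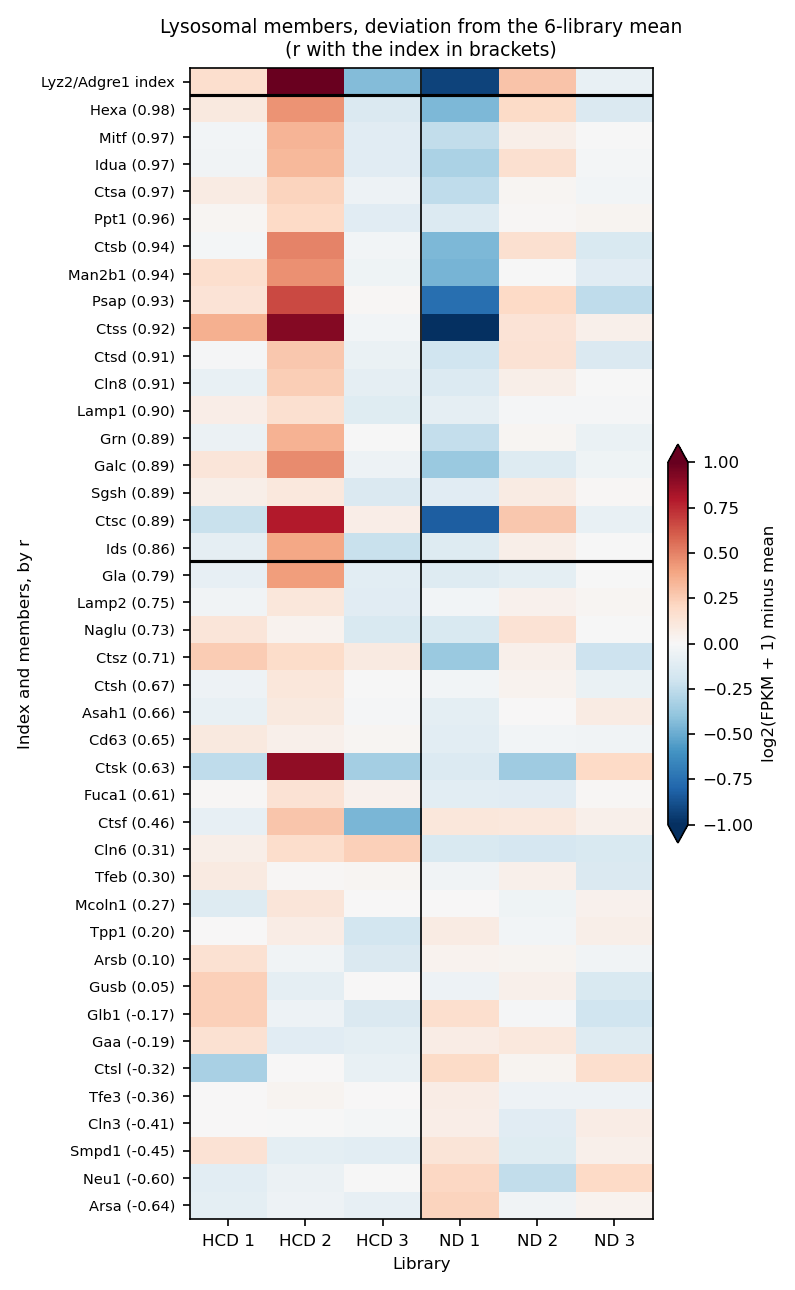
Deviation of log2(FPKM + 1) from the mean of the 6 libraries (colour; values beyond 1 take the end colour) for the Lyz2 and Adgre1 index in the top row and the 41 members below, ordered by r with the index, which stands in brackets. Columns are HCD 1 to HCD 3 left of ND 1 to ND 3, and the second black line separates the 17 members that follow the index from the 24 that do not. The upper block is high in HCD 2 and low in ND 1. The lower block has no pattern common to all 24 members, but 9 of them still have an r above 0.6. In the lower block 8 members are highest in HCD 2, 8 in HCD 1 and 5 in ND 1.

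Cysteine cathepsins fell on both sides, with 3 of 8 following the index. Ctss, an endopeptidase that trims the invariant chain of MHC class II in antigen-presenting cells (chromosome 3, 95526786 to 95556403), was at 174, 257 and 133 FPKM in HCD 1 to HCD 3, against 49.4, 149 and 141 FPKM in ND 1 to ND 3. It spanned 5.20-fold between HCD 2 and ND 1, more than Lyz2 (4.77-fold) and Adgre1 (3.29-fold), and its r was 0.92. Ctsc, the dipeptidyl peptidase that activates granule serine proteases, spanned 3.20-fold between the same libraries (r = 0.89). Ctsb, an endopeptidase and dipeptidase found in most tissues, was at 115, 166 and 115 FPKM in HCD 1 to HCD 3 and at 85.5, 131 and 105 FPKM in ND 1 to ND 3, with an r of 0.94. Ctss, Ctsc and Ctsb were singled out after their values were seen.

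The other 5 cysteine cathepsins did not follow the index. Ctsl, a broad endopeptidase (chromosome 13, 64359337 to 64370890), was among the most abundant members, and its r was -0.32. Ctsz stood at an r of 0.71 and Ctsh, an aminopeptidase, at 0.67. Ctsk, the collagen-degrading cathepsin of osteoclasts, was at 15.1 FPKM in HCD 2 and between 5.80 and 8.95 FPKM in the other libraries, so that its r of 0.63 came with a rank correlation of 0.14. Ctsf, the least abundant of them, ranged from 1.21 to 2.68 FPKM. Ctsl shares 26.8% of its exonic length with an antisense transcript that has no entry among the deposited genes. Ctsb shares 12.8% with Fdft1 on the other strand. Whether the counting used strand is not known from the labels, so reads of such shared stretches cannot be told apart.

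Of the proteases with other mechanisms, Ctsd and Ctsa followed the index and Tpp1, a tripeptidyl peptidase, did not. Ctsd, the main aspartic protease of lysosomes, was at 177, 216 and 171 FPKM in HCD 1 to HCD 3, against 155, 198 and 162 FPKM in ND 1 to ND 3 (r = 0.91). Ctsa, the serine carboxypeptidase also called protective protein (chromosome 2, 164832873 to 164841032), was at 19.7, 21.8 and 17.8 FPKM in HCD 1 to HCD 3 and at 15.3, 18.7 and 18.2 FPKM in ND 1 to ND 3 (r = 0.97). Ctsa shares 10.5% of its exonic length with Pltp on the other strand. Ctsd shares 34.4% with Gm49369, a protein-coding gene on the same strand that has no entry among the deposited genes. How reads of that stretch were counted is not known. Ctsa stabilizes the beta-galactosidase Glb1 and the sialidase Neu1 in a complex of lysosomes, and the transcripts of these partners did not share its pattern: Glb1 had an r of -0.17 and Neu1 of -0.60. Glb1 was at 22.7, 18.3 and 17.2 FPKM in HCD 1 to HCD 3 and at 21.6, 18.9 and 16.5 FPKM in ND 1 to ND 3, an order of libraries unlike that of the index.

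Enzymes of glycosaminoglycan and glycoprotein breakdown were divided 4 to 5. Idua (chromosome 5, 108660331 to 108684557) was at 0.820, 1.33 and 0.717 FPKM in HCD 1 to HCD 3 and at 0.493, 1.08 and 0.838 FPKM in ND 1 to ND 3 (r = 0.97), and Ids, the sulfatase that acts before it on heparan and dermatan sulfate, reached an r of 0.86. Sgsh and the alpha-mannosidase Man2b1 followed too, with r of 0.89 and 0.94. Naglu, the alpha-N-acetylglucosaminidase of the heparan sulfate pathway, lay just outside at 0.73. Gusb, beta-glucuronidase, was at 16.3, 12.8 and 13.7 FPKM in HCD 1 to HCD 3 and at 13.1, 14.2 and 12.2 FPKM in ND 1 to ND 3. Its r of 0.05 was the nearest to 0. Arsb, which removes sulfate from dermatan and chondroitin sulfate, was at 9.05, 7.83 and 7.19 FPKM in HCD 1 to HCD 3 and at 8.28, 8.25 and 7.82 FPKM in ND 1 to ND 3. Gaa, the acid alpha-glucosidase that degrades glycogen, was at 31.6, 26.0 and 26.3 FPKM in HCD 1 to HCD 3 and at 29.9, 30.5 and 25.8 FPKM in ND 1 to ND 3. The diets overlapped for each of Gusb, Arsb and Gaa. Their highest library was HCD 1, the library with the most muscle transcripts, as for 8 of the 24 members outside the limit. A part of muscle in this was not tested. Fuca1, an alpha-fucosidase, had an r of 0.61. Sgsh shares 21.6% of its exonic length with Card14 on the other strand, and Arsb 32.3% with a long noncoding RNA listed at 0 FPKM in all libraries.

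Among the sphingolipid hydrolases, lipid-linked enzymes and activator, taken as 1 group, 4 of 10 followed the index. Hexa, the alpha subunit of beta-hexosaminidase, which degrades GM2 ganglioside (chromosome 9, 59539540 to 59565109), was at 48.0, 61.7 and 40.4 FPKM in HCD 1 to HCD 3, against 32.5, 51.5 and 40.6 FPKM in ND 1 to ND 3. It had the highest r of all members, 0.98, and ordered the 6 libraries exactly as the index did (rank correlation 1). It shares 12.8% of its exonic length with Tmem202 on the other strand, a gene at a mean of 0.0752 FPKM. Psap (chromosome 10, 60277627 to 60302597) was at 299, 431 and 274 FPKM in HCD 1 to HCD 3 and at 161, 312 and 228 FPKM in ND 1 to ND 3, a 2.68-fold span between HCD 2 and ND 1 (r = 0.93). Galc, the galactosylceramidase, spanned 2.55-fold (r = 0.89) and Ppt1, which removes palmitate from proteins, 1.28-fold (r = 0.96). Ppt1 shares 3.51% of its exonic length with Cap1 on the other strand, a gene at a mean of 88.5 FPKM. Asah1, acid ceramidase, stayed between 46.6 and 53.4 FPKM. The lowest r of all members belonged to Arsa, the sulfatase of sulfatides, at -0.64, and Neu1 and Smpd1, acid sphingomyelinase, stood at -0.60 and -0.45.

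Membrane proteins followed the index in 2 of 7 cases, and with shallow slopes. Lamp1 (chromosome 8, 13159161 to 13175338) was at 224, 240 and 197 FPKM in HCD 1 to HCD 3 and at 201, 212 and 213 FPKM in ND 1 to ND 3, a 1.19-fold span between HCD 2 and ND 1 with an r of 0.90. Lamp2, which also serves chaperone-mediated autophagy, stood at 0.75. Cln8 and Cln6 are endoplasmic reticulum proteins that help to export newly made lysosomal enzymes. Cln8 followed the index (r = 0.91) and Cln6 did not (r = 0.31). Cln3, a multispanning membrane protein, and Mcoln1, the cation channel of the lysosomal membrane, had r of -0.41 and 0.27. Cln3 shares 7.65% of its exonic length with Apobr on the other strand, a gene at a mean of 17.0 FPKM. Grn, progranulin, a secreted protein that is processed in lysosomes, followed at 0.89.

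The 3 transcription factors differed from each other. Mitf (chromosome 6, 97807052 to 98021349) was at 0.557, 1.01 and 0.467 FPKM in HCD 1 to HCD 3 and at 0.341, 0.658 and 0.588 FPKM in ND 1 to ND 3. With an r of 0.97 it followed the index most closely after Hexa. Mitf is also a melanocyte gene. Of 7 melanocyte markers none reached the level for testing and 4, Tyr, Dct, Mlana and Oca2, were listed at 0 in all 6 libraries. The summed level of the 7 was 0.253 to 0.577 FPKM in HCD and 0.205 to 0.376 FPKM in ND. Tfeb was at 2.24, 2.07 and 2.07 FPKM in HCD 1 to HCD 3 and at 1.97, 2.15 and 1.75 FPKM in ND 1 to ND 3 (r = 0.30). Tfe3 was at 3.57, 3.63 and 3.56 FPKM in HCD 1 to HCD 3 and at 3.79, 3.40 and 3.39 FPKM in ND 1 to ND 3 (r = -0.36). Tfe3 was thus the most abundant of the 3 and varied by 1.12-fold between its highest and lowest library, against 2.96-fold for Mitf.

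**Figure D3:**
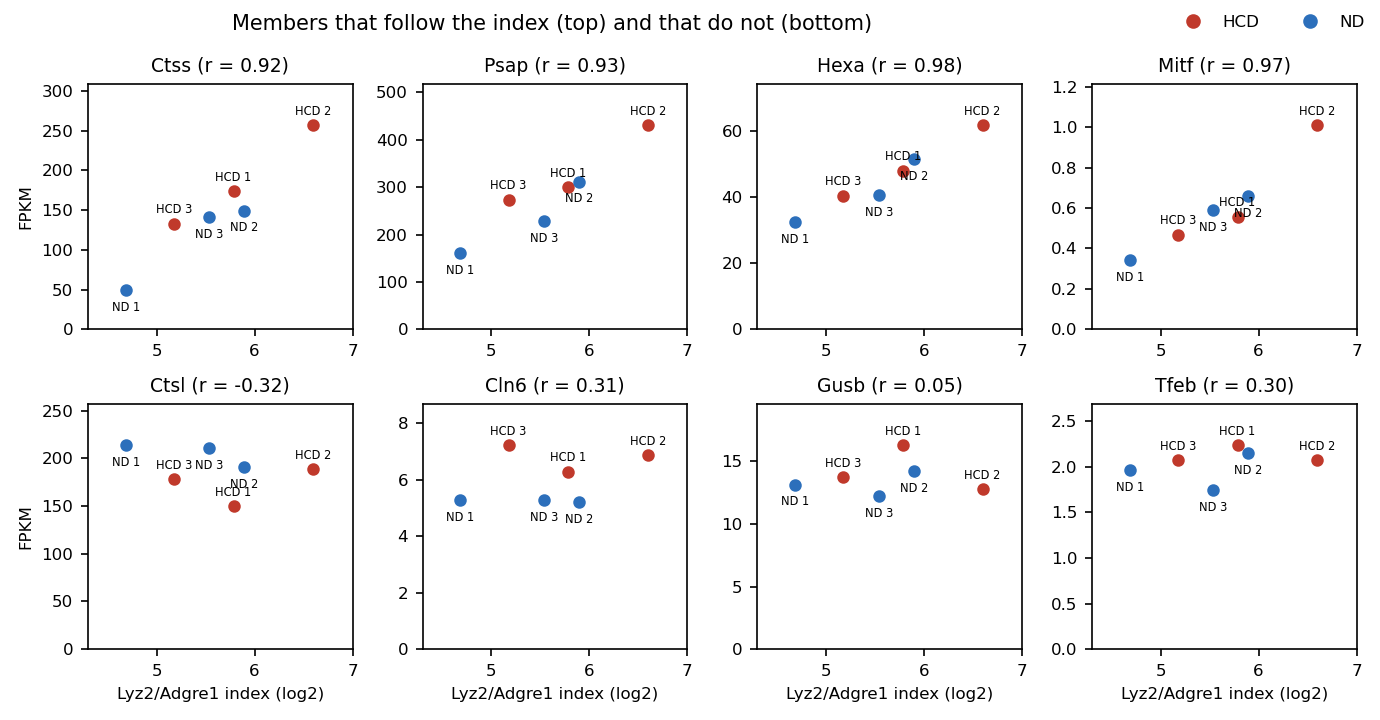
FPKM (vertical axis, from 0) against the Lyz2 and Adgre1 index (horizontal axis, log2) for 8 members, with 1 point for each library, HCD in red and ND in blue. Ctss, Psap, Hexa and Mitf in the top row increase with the index, with r (on the log2 scale) of 0.92 to 0.98, while Ctsl, Cln6, Gusb and Tfeb in the bottom row have r of -0.32 to 0.31.

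Members that followed the index differed in how far they moved with it. Per unit of the index the fitted change on the log2(FPKM + 1) scale ranged from 0.14 for Lamp1 to 1.10 for Ctss, with a median of 0.29. The level in HCD 2 over that in ND 1 ranged from 1.19-fold to 5.20-fold, with a median of 1.90-fold, and was 1.08-fold in the median of the 24 others. Summed over the 17 members the level was 1185, 1575 and 1074 FPKM in HCD 1 to HCD 3, against 798, 1209 and 1032 FPKM in ND 1 to ND 3. Summed over the 24 others it was 1075, 1103 and 1032 FPKM in HCD 1 to HCD 3 and 998, 1044 and 1026 FPKM in ND 1 to ND 3. Both sums had their highest value in HCD 2 and their lowest in ND 1, but the second stayed between 998 and 1103 FPKM. All 17 were highest in HCD 2, and 14 were lowest in ND 1.

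**Figure D4:**
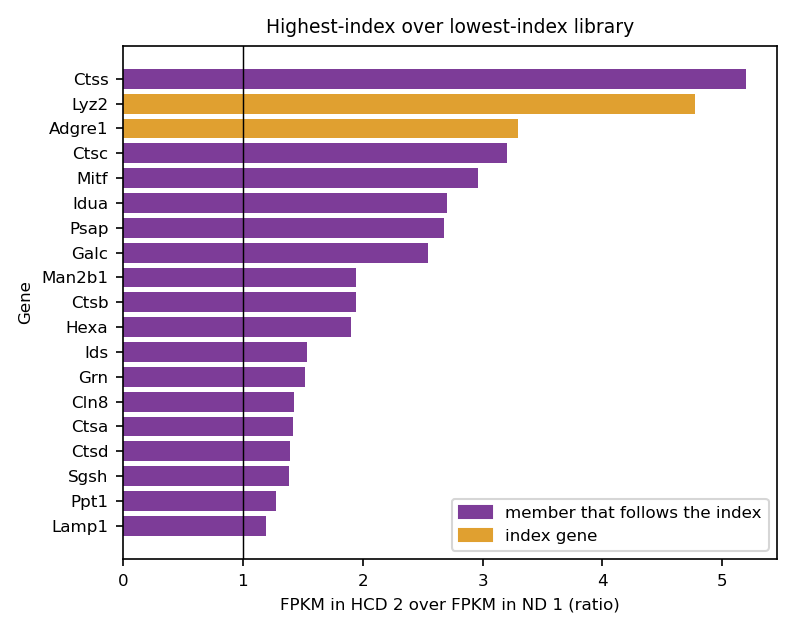
FPKM in HCD 2, the library with the highest index, over FPKM in ND 1, the library with the lowest (horizontal axis, ratio, from 0, line at 1), for the 17 members that follow the index (purple) and the index genes (orange). Ctss lies above both index genes at 5.20, and Lamp1 is lowest at 1.19.

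Promoters of the members are shown because the factors above bind E-boxes there, and because members with the same motif fell on both sides of the separation. RefSeq promoters on GRCm38.p6, from 250 bases before to 50 after each start, were found for 37 of the 41 members, and not for Ctsb, Ctsh, Cln8 and Asah1. The motif TCACGTGA, which reads the same on both strands and contains the shorter motifs CACGTG and TCACGTG, was present in 5 of the 37 members (13.5%), against 1.12% of all 27025 genes with a promoter in the table. TCACGTG on either strand was present in 11 (29.7%, against 4.29%) and CACGTG in 13 (35.1%, against 8.09%). Of the members that followed the index 2 of 15 held TCACGTGA (13.3%), and of the others 3 of 22 (13.6%). A match is a run of letters and does not show binding. In the sequences below capitals mark CACGTG with the flanking T or A of a longer match. The position given for a match is that of the first base of CACGTG, not of a flanking T. A further promoter of Ctsa, chr2:164832622-164832921, holds no match.
Ctsa, chr2:164833523-164833822, plus strand, follows the index, with matches that begin 12 bases before and at base 6 after the start: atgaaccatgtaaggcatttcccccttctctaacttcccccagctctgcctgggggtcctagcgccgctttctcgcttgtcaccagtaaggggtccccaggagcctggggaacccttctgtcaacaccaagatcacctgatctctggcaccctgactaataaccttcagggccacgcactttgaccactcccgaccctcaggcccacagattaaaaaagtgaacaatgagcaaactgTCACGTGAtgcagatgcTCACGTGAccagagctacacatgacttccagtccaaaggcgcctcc
Ctsd, chr7:142387778-142388077, minus strand, follows the index, with matches 245 and 98 bases before the start: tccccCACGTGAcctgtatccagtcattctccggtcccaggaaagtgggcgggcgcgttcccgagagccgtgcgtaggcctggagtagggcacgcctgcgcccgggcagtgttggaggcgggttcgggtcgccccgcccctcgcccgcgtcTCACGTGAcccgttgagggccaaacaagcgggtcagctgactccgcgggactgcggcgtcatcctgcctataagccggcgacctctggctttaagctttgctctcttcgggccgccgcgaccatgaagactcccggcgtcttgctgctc
Lamp1, chr8:13158911-13159210, plus strand, follows the index with a shallow slope, with 4 matches 61, 45, 28 and 15 bases before the start: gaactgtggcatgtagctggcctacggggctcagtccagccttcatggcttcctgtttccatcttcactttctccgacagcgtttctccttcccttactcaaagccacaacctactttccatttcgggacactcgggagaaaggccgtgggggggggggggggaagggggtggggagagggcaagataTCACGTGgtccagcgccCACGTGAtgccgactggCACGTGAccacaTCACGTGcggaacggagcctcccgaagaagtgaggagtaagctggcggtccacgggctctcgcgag
Mcoln1, chr8:3500269-3500568, plus strand, does not follow the index, with matches 71 and 45 bases before the start: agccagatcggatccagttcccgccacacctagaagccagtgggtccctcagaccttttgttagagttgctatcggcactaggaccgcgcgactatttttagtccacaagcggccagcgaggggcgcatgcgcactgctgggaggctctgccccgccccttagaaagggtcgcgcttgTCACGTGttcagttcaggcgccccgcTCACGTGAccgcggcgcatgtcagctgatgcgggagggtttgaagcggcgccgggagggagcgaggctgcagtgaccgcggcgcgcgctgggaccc
Ctss, chr3:95526536-95526835, plus strand, follows the index with the steepest slope, with no match in this window: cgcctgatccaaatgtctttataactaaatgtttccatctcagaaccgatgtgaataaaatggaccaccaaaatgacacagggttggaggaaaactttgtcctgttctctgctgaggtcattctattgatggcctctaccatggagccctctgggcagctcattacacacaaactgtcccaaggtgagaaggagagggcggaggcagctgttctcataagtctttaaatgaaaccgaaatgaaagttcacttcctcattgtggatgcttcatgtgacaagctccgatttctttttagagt
Ctsa and Mcoln1 thus hold the same 8 letters, with r of 0.97 and 0.27 against the index.

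Between the diets no member was called. In limma on log2(FPKM + 1), with Benjamini-Hochberg adjustment over the 13417 tested genes at 0.05, 0 of 41 members and 0% of all genes were called higher, and likewise 0% lower; the smallest adjusted p of any gene was 0.138. At an unadjusted p under 0.05 there were 3 members, Cln6 and Ctsz higher and Ctsl lower in HCD, against a background of 5.88% of all genes (2.56% higher and 3.32% lower). The groups did not overlap in 6 members, 4 higher and 2 lower in HCD, against a background of 12.1% of all genes (5.98% higher and 6.13% lower). These counts lie near what the whole table gives.

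Cln6 (chromosome 9, 62838785 to 62852006) was at 6.28, 6.88 and 7.23 FPKM in HCD 1 to HCD 3, against 5.29, 5.22 and 5.28 FPKM in ND 1 to ND 3. The groups did not overlap, and the means were 6.80 ± 0.477 FPKM in HCD and 5.27 ± 0.0400 FPKM in ND (SD, n = 3). The log2 difference was 0.31 (HCD minus ND, SE 0.0658, 95% interval 0.15 to 0.47), with an unadjusted p of 0.00281 and an adjusted p of 0.794 in limma. Ctsz (chromosome 2, 174427493 to 174439039) was at 274, 260 and 243 FPKM in HCD 1 to HCD 3, against 177, 238 and 198 FPKM in ND 1 to ND 3. Its lowest HCD library lay just above ND 2, and the log2 difference was 0.35 (95% interval 0.07 to 0.63, limma adjusted p = 0.794). Ctsl was at 150, 188 and 178 FPKM in HCD 1 to HCD 3 and at 214, 191 and 211 FPKM in ND 1 to ND 3. HCD 2 and ND 2 were close to each other, and the log2 difference was -0.26 (95% interval -0.50 to -0.02, limma adjusted p = 0.794). Without HCD 1 it was -0.16. Cd63 was at 325, 315 and 308 FPKM in HCD 1 to HCD 3, against 282, 298 and 296 FPKM in ND 1 to ND 3, without overlap and with a difference of 0.11 (SE 0.0537, limma adjusted p = 0.794). Fuca1 and Arsa, the other members without overlap, differed by 0.13 and -0.15, both with an adjusted p of 0.794 in limma.

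Higher means in HCD were found in 30 of 41 members, where 55.7% of all tested genes had one, and the median log2 difference was 0.07 over the members and 0.02 over all genes. The count rested on few libraries. It was 21 of 41 without HCD 2 and 17 of 41 without HCD 2 and ND 1 together, with a median of -0.029 without both. Without HCD 1 and ND 2, the libraries with the most muscle transcripts, it was 31 of 41, and again no member was called. The 17 members that followed the index had higher means in HCD without exception and a median difference of 0.17, against 13 of the 24 others and a median of 0.01. Without HCD 2, 11 of the 17 had a higher mean, and without HCD 2 and ND 1 only 5. The mean of the index was itself higher in HCD, so the direction of these 17 is not independent of how they were chosen. With the index as a second term in the fit, 23 of the 41 members and 11 of the 17 had a positive diet difference, with medians of 0.01 and 0.05.

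With all 6 libraries, Ctss and Psap had the largest differences of the 41 members, with wide intervals. Ctss averaged 188 ± 63.1 FPKM in HCD and 113 ± 55.4 FPKM in ND (SD, n = 3). Its log2 difference was 0.83, with a 95% interval of -0.30 to 1.96. Psap averaged 335 ± 84.2 FPKM in HCD and 234 ± 75.6 FPKM in ND (SD, n = 3), with a difference of 0.54 (95% interval -0.13 to 1.21). Both sizes rested on few libraries: Ctss differed by 0.32 without ND 1 and by 0.068 without HCD 2 and ND 1, and Psap by 0.30 without ND 1, 0.34 without HCD 2 and 0.10 without both. Cln6 differed by 0.32 without ND 1 and by 0.31 without HCD 2 and ND 1. For Hexa, Idua, Ctsa, Lamp1 and Mitf the differences were 0.27, 0.12, 0.17, 0.07 and 0.13. Each of these 7 intervals spanned 0, the groups overlapped for each, and limma's adjusted p was 0.794 or more. The differences of Mitf and Idua were -0.017 and -0.051 with the index as a second term. Tfeb and Tfe3 differed by 0.08 (95% interval -0.11 to 0.28) and 0.02 (95% interval -0.14 to 0.18).

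**Figure D5:**
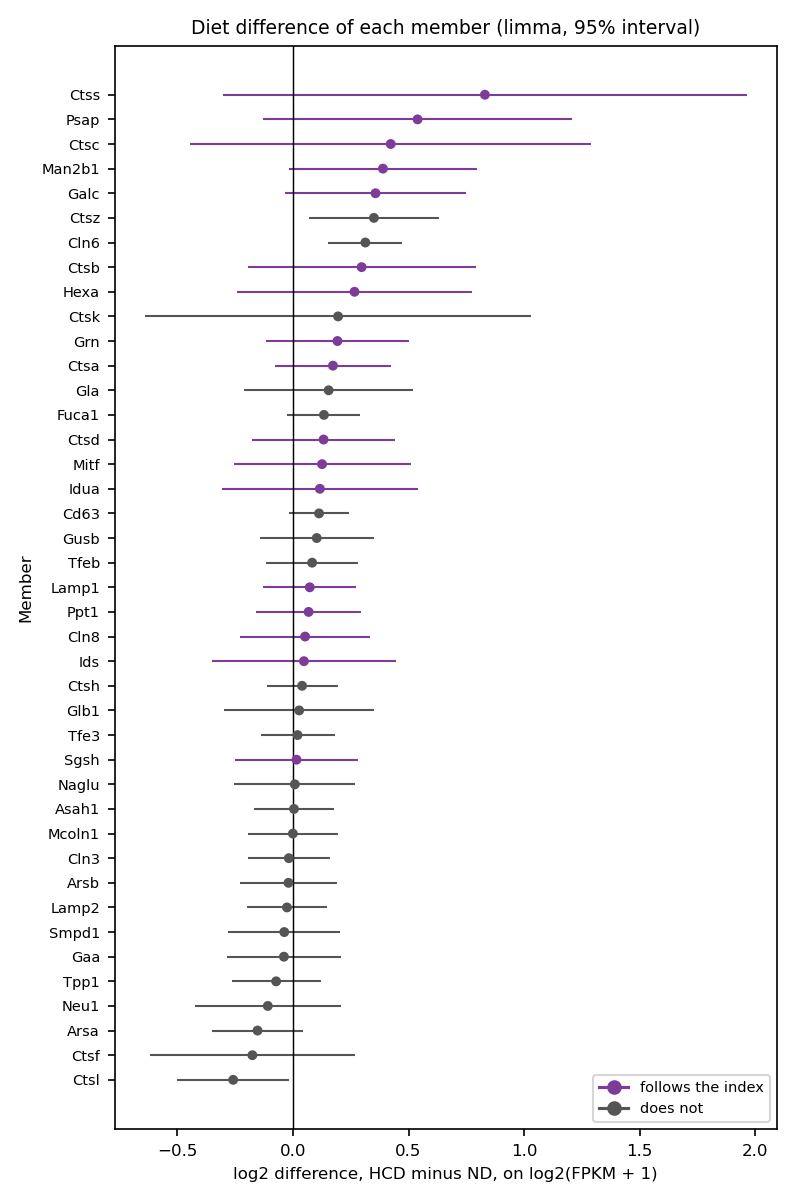
Difference in log2(FPKM + 1) between the diets, HCD minus ND (horizontal axis), for each of the 41 members, with the limma estimate as a point and its 95% interval as a line. Members that follow the index are in purple and the others in grey. The intervals of Cln6, Ctsz and Ctsl leave out 0, before any adjustment for the number of genes tested.

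Other lysosomal genes were counted in lists written with earlier results of these data known, to be read against the 12.2% of all tested genes that reached an r of 0.8. Of 27 further hydrolases and activators 14 followed the index and 23 had a higher mean in HCD, with a median log2 difference of 0.12. Lgmn, the asparaginyl endopeptidase that processes cathepsins, averaged 62.4 FPKM in HCD and 47.1 FPKM in ND (r = 0.91). Of 19 tested membrane proteins and transporters 10 followed, among them Laptm4a (r = 0.83) and Npc2, the soluble partner in cholesterol export from lysosomes (r = 0.89). Cd68, also counted above as a macrophage marker, was another of the 10 (r = 0.95). In each of these 2 lists 1 gene ran against the index, Tpp2 among the hydrolases and Ctns among the membrane proteins (both r = -0.81). Subunits of the V-ATPase, the proton pump that acidifies lysosomes, followed the index in 3 of 19 cases: Tcirg1, Atp6v0d2 and Atp6v1g2, chosen by that count. The abundant subunits Atp6v1g1 and Atp6v1c1 had r of -0.68 and -0.53. In the machinery of mannose 6-phosphate tagging and sorting 3 of 12 followed, with M6pr, a receptor for the tag, at 0.92 and Ap3b1, an adaptor subunit, at -0.21. Of 14 tested genes of the Ragulator and Rag complexes and TFEB control 2 followed, Mtor and Tfec. The abundant Rraga and Lamtor1 did not (r = -0.17 and 0.48). The median r was 0.36 for the V-ATPase list, 0.26 for the mannose 6-phosphate list and 0.48 for the Ragulator list. Averaged over a whole list, with genes below the level for testing included, log2(FPKM + 1) had a higher r with the index. It was 0.91 for the V-ATPase list, 0.75 for the mannose 6-phosphate list and 0.96 for the Ragulator list. Tfec, a factor of the same family as Mitf and singled out after its values were seen, averaged 1.15 FPKM in HCD and 0.739 FPKM in ND (r = 0.85). None of these genes was called between the diets by limma.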

How the data were processed

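Total RNA of 6 tumours was sequenced from paired-end TruSeq RNA libraries, per the labels' protocols. The authors deposited FPKM values, 1 column per sample, per the file headers, and 0 value columns were left without a sample. Tools listed in the submitters' processing notes, without a role, are edgeR, HTSeq, TopHat2 2.0.9 and CASAVA 1.8, with mm10 as the build. No source names an annotation release. FPKM values are not counts, so limma 3.58.1 (R 4.3.3) was fitted to log2(FPKM + 1) of the 13417 genes averaging 0.5 FPKM or more, with diet as its only term, a variance trend, two-sided tests and Benjamini-Hochberg adjustment over all genes at 0.05. The log scale understates changes of low genes. The fit and the correlations were tested on simulated data. Members, lists and rules were chosen with earlier results of these data known.

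Values in every library were given for members with an unadjusted p under 0.05, the 4 with the highest r, the 4 with r nearest 0, the 4 with the highest mean, and Tfeb, Tfe3 and Mitf; Ctss, Ctsb and Ctsd were added after their values were seen. Gene positions were read from GENCODE M21 (GRCm38, equivalent to mm10) and count from 1. Library sizes came from the steps between values of 1 to 20 reads at M21 exon lengths, of which 49.9% to 52.9% came out within 0.02 of a whole read. Of the 41 members 0 came that near to whole reads in all 6 libraries. Read numbers of a member are therefore approximate, since the authors' gene lengths may differ. Intervals cover the spread between these samples. Alternatives comprised a pseudocount of 0.1, other filters and scalings, the replicate number as a block, the index as a term, other indices and limits of r, and libraries left out. One further gene that the naming rule would give is not reported here.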

Additional observations from a re-analysis of the deposited data

How the results depend on the processing

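No setting called a gene higher in HCD, and 1 gene was called lower when ND 2 was omitted (range over omitted libraries 0 to 0 higher and 0 to 1 lower). Members called numbered 0 in every setting, with 0 to 0 on leaving out each library. The labels do not state whether library numbers pair the samples. Deviations of same-numbered libraries from their diet means correlated at -0.19, 0.14 and 0.06, which with 3 libraries per diet cannot settle it. With the replicate block 0 genes and 0 members were called. At an unadjusted p under 0.05 in limma there were then 753 genes in place of 789, and 6 members in place of 3. Scaling by median ratio or upper quartile left 29 and 28 members with a higher mean.

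Members with a higher mean in HCD, 30 as reported, numbered 18 with the C1q and Csf1r index as a term and 17 without HCD 2 and ND 1, and 21 to 36 on leaving out each library. Of the 17 that followed the index, 11 had a higher mean with that index as a term, 7 with the C1q and Csf1r index, 5 without HCD 2 and ND 1, and 11 to 17 on leaving out each library. The median difference was 0.00084 to 0.13 over all members, 0.065 to 0.24 over the 17 and -0.0087 to 0.037 over the 24 on leaving out each library. Members that followed the index numbered 11 at a limit of 0.9, 21 at a limit of 0.7, 24 without ND 2 and HCD 1, 12 without HCD 2 and ND 1, and 12 to 20 on leaving out each library. The cause of these shifts was not tested.

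Of 23 members recomputed under the alternatives, 12 kept the sign of their diet difference in each; Idua and Mitf gave no value under the filter of 1 FPKM in 3 libraries. The sign turned without HCD 2 and ND 1 for Arsb (0.0071), Gaa (0.039), Idua (-0.15), Hexa (-0.052), Lamp1 (-0.016), Mitf (-0.10), Ctsb (-0.029), Ctsc (-0.18) and Ctsd (-0.038). With the C1q and Csf1r index as a term it turned for Idua (-0.11), Hexa (-0.015), Lamp1 (-0.0066), Mitf (-0.061), Ctsc (-0.052) and Ctsd (-0.016), and with the Lyz2 and Adgre1 index for Idua (-0.051) and Mitf (-0.017). Glb1 turned to -0.083 without ND 2 and HCD 1. On leaving out each library, ranges that crossed 0 were -0.10 to 0.048 for Arsb, -0.13 to 0.0097 for Gaa, -0.085 to 0.12 for Glb1, -0.017 to 0.23 for Idua, -0.011 to 0.22 for Mitf and -0.0018 to 0.062 for Tfe3. The alternatives with a C1q and Csf1r index as a term and without HCD 2 and ND 1 were chosen after seeing the data.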

Other observations

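Of 18 autophagy genes 3 had an r of at least 0.8 with the Lyz2 and Adgre1 index (Uvrag, Optn and Becn1, named after their values were seen). The most abundant of the list did not: Sqstm1, the receptor p62, averaged 59.1 FPKM in HCD and 57.9 FPKM in ND (r = 0.31), and Gabarap, a protein of the autophagosome membrane, 40.4 FPKM in HCD and 41.6 FPKM in ND (r = -0.54). The median r of the list was -0.05, and 12.2% of all tested genes reached 0.8. Means were higher in HCD for 11 of the 18, with a median log2 difference of 0.03, and limma called none.

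Cathepsin inhibitors were measured beside their targets. Of 9 genes 4 were tested and 2 followed the index: Cst3, the secreted cystatin C, at 70.2 FPKM in HCD and 63.6 FPKM in ND (r = 0.92), and Cst7, a cystatin of leukocytes, at 4.12 FPKM in HCD and 1.67 FPKM in ND (r = 0.84, log2 difference 0.90, limma adjusted p = 0.794). Cstb, the cytosolic cystatin B, was the most abundant, at 123 FPKM in HCD and 116 FPKM in ND (r = 0.46). Stfa2l1, a stefin A family gene, had the largest difference of the list in size and a lower mean in HCD, at 0.746 FPKM in HCD and 2.98 FPKM in ND (r = -0.47, log2 difference -1.02, limma adjusted p = 0.794). Its ND libraries ranged from 0.737 to 5.04 FPKM and overlapped with HCD.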
